A study of Homo sapiens with 16 samples.

Results

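HNRNPH1 (ENSG00000169045.17, heterogeneous nuclear ribonucleoprotein H1) was followed transcript by transcript in cells that received a small interfering RNA against it. All rows that carry the symbol HNRNPH1 were taken from both deposited short-read tables, which gave 50 transcripts of the 251295 listed. Only 234 of 61906 genes list more transcripts. All transcript models of the HNRNPH1 locus, on the minus strand of chromosome 5 (GRCh38.p13, chr5:179614179-179624614), were taken from the 4 deposited long-read files. They numbered 36 of 64705 models in HEK-293T siNegative, 14 of 94847 in HEK-293T siHNRNPH1, 15 of 72186 in HT-1080 siNegative and 2 of 68078 in HT-1080 siHNRNPH1.

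HT-1080 is a fibrosarcoma cell line, and HEK-293T is an embryonic kidney line that expresses the large T antigen of SV40. Cells of either line were transfected with 20 nM siRNA, either siHNRNPH1 or the control siNegative, and RNA was prepared 48 h later from 3 biological replicates of each of the 4 groups. For each transcript the short-read tables hold an expected count, which RSEM estimates by dividing reads that fit several transcripts among them. Levels are given as CPM, expected counts scaled to a common library total (counts per 1 M), and are not scaled for transcript length. The long-read assay, IsoSeq, sequences whole cDNA molecules, and its models come from 1 pool per group, labelled as pooled replicates. The position that the siRNA targets was not used here. RNA came from whole cultures, so fewer cells with a transcript and less of it per cell cannot be told apart.

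HNRNPH1 encodes a nuclear protein that binds runs of guanine in RNA and takes part in the choice of splice sites. Its close relatives are HNRNPH2, HNRNPH3, HNRNPF and GRSF1, which share its type of RNA-binding domain. Splicing factors of this kind are often made from genes with many transcript variants, including variants that keep an intron or skip an exon. An siRNA leads to the cleavage of transcripts that contain its target sequence, so variants without that sequence are not cut by this route.

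Most long-read models began at one place and used 1 of 2 splice donors to end exon 1. The start and donor sequences are shown because the models divide by them. They come from RefSeq (GRCh38.p14, whose chromosome 5 has the coordinates of GRCh38.p13), each 30 bases on the minus strand, 5′ to 3′. Capitals mark the annotated first base in the start windows and the GT that opens the intron in the donor windows. In both donor windows the GT follows directly on the last exon base of the deposited models.
Main start, chr5:179623671-179623700, used within 50 bases by 56 of 67 models: ttatttaggttgcgcaggcgcccgctggcC
Upstream start, chr5:179624600-179624629, near the first exon of 2 models: gtgtgcacatggggtgacccgggggcctcC
Short exon 1 donor, chr5:179623616-179623645, used by 19 models: gcgtgtctagGTgagtcgcggtgggtcctc
Long exon 1 donor, chr5:179623575-179623604, used by 37 models: agcgaccacgGTgggtaccgtttttgcgag
The donors lie 41 bases apart, so exon 1 of the long form has 41 more bases.

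Library totals were 108 M to 121 M expected counts in HEK-293T and 27.3 M to 32.7 M in HT-1080, so a given CPM rests on more counts in HEK-293T. The defining markers followed the labels: NEFM lay between 252 and 490 CPM in HEK-293T and at most 0.0330 CPM in HT-1080, and CD44 lay between 1836 and 3129 CPM in HT-1080 and at most 2.76 CPM in HEK-293T. All 3 HEK-293T markers and all 5 HT-1080 markers were higher in the line they mark, although PAX2 was at most 2.20 CPM in HEK-293T and MMP1 at most 1.99 CPM in HT-1080, and LIN28B reached 26.1 CPM in HT-1080. The library of HEK-293T siHNRNPH1 replicate 1 stood apart. Across genes, its log2 CPM correlated with those of the other siHNRNPH1 libraries at r = 0.965 and 0.962, where those correlated with each other at r = 0.999. The values of HEK-293T include it unless its absence is stated, and where the call of a named transcript or gene changes without it, the value without it is given.

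The gene as a whole fell in both lines. In HEK-293T, the siNegative libraries held 1107, 1105 and 1121 CPM and the siHNRNPH1 libraries 234, 376 and 394 CPM, with replicate 1 the lowest. The groups did not overlap, and 30.1% of the mean control level remained. The log2 fold change was -1.76 (SE 0.20, n = 3 per group, edgeR quasi-likelihood adjusted p = 0.00939), among genes of which 4.88% were called lower. Without replicate 1 it was -1.58 (edgeR adjusted p = 6.94e-21), with 34.7% remaining and 31.3% of genes called lower. The adjusted p rose above the threshold of 0.05 when any siNegative library was left out (0.0760, 0.0757 and 0.0743) and when siHNRNPH1 replicate 2 was left out (0.0514).

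In HT-1080, the siNegative libraries held 635, 606 and 617 CPM and the siHNRNPH1 libraries 231, 231 and 228 CPM. The siHNRNPH1 libraries differed by less than the siNegative libraries did, and 37.2% of the control level remained. The log2 fold change was -1.49 (SE 0.04, n = 3 per group, edgeR adjusted p = 6.76e-09), where 32.6% of all genes were called lower. The siNegative level in CPM was lower in HT-1080 than in HEK-293T. The difference between the lines in log2 fold change was 0.20 (SE 0.19, edgeR interaction adjusted p = 0.506), HT-1080 minus HEK-293T, and was not detectable with these 12 libraries.

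Of the 50 transcripts, 38 passed edgeR's filter on low counts in HEK-293T and 30 in HT-1080, 29 of them in both. The other transcripts were too low to test, and in every library of the line 3 were at 0 in HEK-293T and 5 were at 0 in HT-1080, with 1 at 0 in all 12 libraries. In HEK-293T, 5 of the 38 tested transcripts were called lower, where 0.15% of all transcripts were, and 0 were called higher, where 0.0983% were. ENST00000503105.5, named after its values were seen, was 1 of the 5 and went from a mean of 2.44 to 0.0967 CPM. With any other HEK-293T library left out, 0 were called lower, and 0 of all tested transcripts were called in either direction. Without siHNRNPH1 replicate 1, 22 of 39 were called lower against 8.71% of all transcripts, and 0 higher against 7.29%. In HT-1080, 16 of 30 were called lower against 8.18% of all, and 0 higher against 7.91%. Without siNegative replicate 1 or 3, 9 were called lower in HT-1080, and without siHNRNPH1 replicate 3, 10 were. Over all transcripts, 9.87%, 9.75% and 8.58% were called in either direction in those fits. At an unadjusted p under 0.05, 1 transcript was higher in HEK-293T and 0 in HT-1080, and DESeq2 called 0 higher in either line. Over all transcripts, DESeq2 called 7.82% in HEK-293T and 21.9% in HT-1080 in either direction. The median log2 fold change of the tested HNRNPH1 transcripts was -1.62 in HEK-293T and -1.27 in HT-1080, beside medians over all tested transcripts of 0.0042 and 0.0016. Transcripts called lower in both lines numbered 3: ENST00000442819.6, ENST00000510678.5 and ENST00000329433.11.

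**Figure D1:**
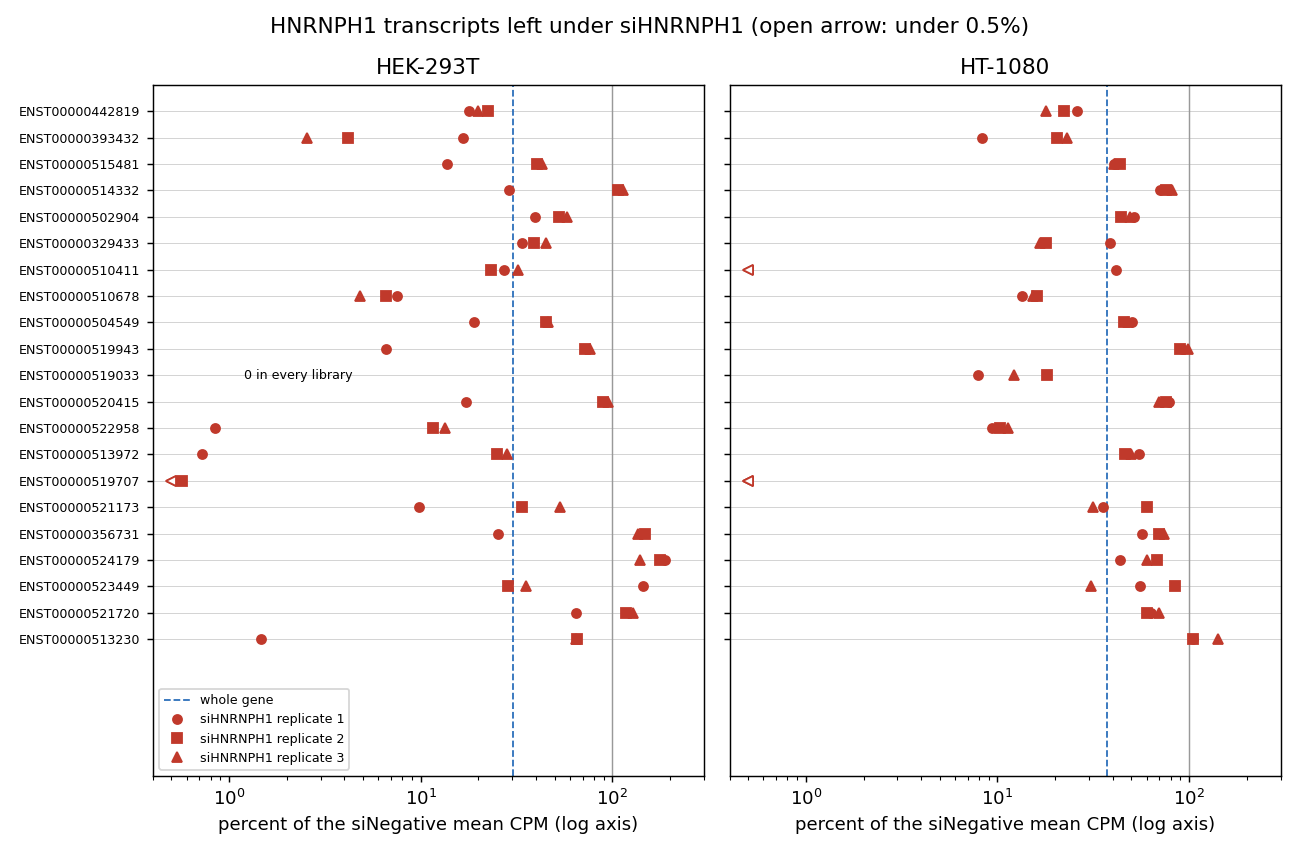
Percent of the mean siNegative CPM left in each siHNRNPH1 library (log axis) for the 21 HNRNPH1 transcripts with at least 1% of the gene in any group, ordered by their share in siNegative cells. Each point is 1 library, the dashed line marks the whole gene (30.1% in HEK-293T, 37.2% in HT-1080) and the solid line marks 100%. ENST00000514332, ENST00000519943 and ENST00000520415 lie right of the dashed line in all HT-1080 libraries and in 2 of 3 HEK-293T libraries, and ENST00000510678 and ENST00000393432 lie left of it in all 6. Open arrows mark libraries under 0.5%.

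The 21 transcripts with at least 1% of the gene in any group held 97.8% of its expected counts in HEK-293T siNegative cells and 97.6% in HT-1080 siNegative cells. The 3 largest transcripts of siNegative cells held 52.9% of the gene (HEK-293T) and 45.6% (HT-1080). Under siHNRNPH1 the same transcripts held 35.4% and 31.9%. They were picked as the largest of siNegative cells, a choice that itself favours a fall. Wider cuts changed less or not at all in HT-1080. There the 5 largest held 65.2% (siNegative) and 65.5% (siHNRNPH1), and the 10 largest 83.8% and 79.6%. The HEK-293T shares were 70.8% (siNegative) and 56.0% (siHNRNPH1) at the cut of 5, and 91.2% and 89.5% at the cut of 10. Percentages are of expected counts, so a longer transcript weighs more than an equal number of shorter molecules.

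ENST00000442819.6 had the largest mean share of siNegative cells in both lines. In HEK-293T it stood at 209, 196 and 218 CPM with siNegative and at 37.0, 46.7 and 41.3 CPM with siHNRNPH1. Its log2 fold change was -2.30 (SE 0.13, edgeR adjusted p = 0.0273). In HT-1080 it stood at 105, 125 and 116 CPM and at 29.9, 25.9 and 20.7 CPM, with a log2 fold change of -2.20 (SE 0.15, edgeR adjusted p = 0.000601). The mean left was 20.1% of the control level in HEK-293T and 22.1% in HT-1080, below the gene as a whole in either line, and the groups did not overlap.

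ENST00000393432.9 was second in both lines and was among the transcripts left lowest. Its HEK-293T siNegative libraries held 190, 218 and 190 CPM, and its siHNRNPH1 libraries 33.1, 8.35 and 5.09 CPM. Replicate 1 was the highest of the siHNRNPH1 libraries here, although it was the lowest for the whole gene. The log2 fold change in HEK-293T was -3.59 (SE 0.83, edgeR adjusted p = 0.144), and without replicate 1 it was -4.94 (edgeR adjusted p = 0.00108). In HT-1080 it went from 98.8, 92.7 and 72.6 CPM to 7.31, 17.9 and 20.4 CPM, a log2 fold change of -2.55 (SE 0.39, edgeR adjusted p = 0.00952).

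ENST00000510678.5 was a smaller transcript that was called lower in both lines. In HEK-293T it stood at 29.4, 27.4 and 33.6 CPM with siNegative and at 2.27, 1.98 and 1.44 CPM with siHNRNPH1, so that 6.30% was left (log2 fold change -3.95, SE 0.29, edgeR adjusted p = 0.0314). Its HT-1080 libraries stood at 26.7, 27.4 and 22.0 CPM and at 3.43, 4.09 and 3.88 CPM, with 15% left (log2 fold change -2.76, SE 0.14, edgeR adjusted p = 0.000228). All 6 siHNRNPH1 libraries lay well under the siNegative libraries of their line, and replicate 1 of HEK-293T was not apart from the others for this transcript.

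ENST00000519707.5 was nearly or wholly at 0 under siHNRNPH1. In HEK-293T it stood at 16.8, 19.2 and 16.6 CPM with siNegative and at 0, 0.0997 and 0.0556 CPM with siHNRNPH1, which is 0.295% of the control level (edgeR adjusted p = 0.0561, and 0.000344 without replicate 1). In HT-1080 it stood at 5.34, 1.23 and 4.73 CPM and was at 0 in all 3 siHNRNPH1 libraries. Against a floor of 3 counts per library it was at least 37.8-fold lower there (edgeR adjusted p = 0.0161). ENST00000508103.5 and ENST00000510431.5, at 0 in all siHNRNPH1 libraries of HEK-293T and in all HT-1080 libraries, were at least 45.1-fold and 15.4-fold lower in HEK-293T (edgeR adjusted p = 0.0502 and 0.0835, or 0.00221 and 0.0129 without replicate 1). ENST00000513225.5, the remaining transcript among the 3 lowest log2 fold changes of HT-1080 with ENST00000522958.5, left 4.35% there (edgeR adjusted p = 0.0362). That call was lost without any siNegative library or siHNRNPH1 replicate 3 (0.0878 to 0.124).

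ENST00000522958.5 and ENST00000519033.5 were strongly reduced in HT-1080. The former went from 12.8, 11.2 and 14.2 CPM to 1.19, 1.31 and 1.45 CPM (10.3% left, edgeR adjusted p = 0.000206), and in HEK-293T from 6.06, 7.56 and 7.63 CPM to 0.0599, 0.818 and 0.95 CPM (8.60% left, edgeR adjusted p = 0.175, or 12.5% and 0.00120 without replicate 1). The latter was at 0 in all 6 HEK-293T libraries, and went in HT-1080 from 26.3, 21.4 and 21.6 CPM to 1.83, 4.18 and 2.81 CPM (edgeR adjusted p = 0.00244). In siNegative cells it made up 3.72% ± 0.37 of the gene in HT-1080 (SD, n = 3).

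ENST00000514332.5 had a mean closer to its siNegative level than the whole gene had in both lines. In HEK-293T it stood at 60.3, 61.1 and 64.3 CPM with siNegative and at 17.8, 66.3 and 69.9 CPM with siHNRNPH1. Replicate 1 lay far under the siNegative libraries, and the other replicates lay above them. Its log2 fold change was -0.29 (SE 0.46, edgeR adjusted p = 0.833), and without replicate 1 it was 0.089 (SE 0.05, adjusted p = 0.291). Its HT-1080 libraries stood at 73.4, 53.3 and 76 CPM and at 47.9, 50.9 and 55.1 CPM, where the groups overlapped (log2 fold change -0.42, SE 0.14, edgeR adjusted p = 0.111). It was called lower in HT-1080 by DESeq2 (adjusted p = 0.0366), and by edgeR without siNegative replicate 2 (log2 fold change -0.56, adjusted p = 0.00923). The adjusted p over the alternatives ranged from 0.00923 to 0.264. That siNegative library differed most from its replicates: chi-square divided by its degrees of freedom was 15.8 and 16.2 against them, and 1.74 between the others. The mean left was 83.0% in HEK-293T and 75.9% in HT-1080.

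ENST00000519943.1 and ENST00000520415.1 were left at a higher percentage than the whole gene in HT-1080. ENST00000519943.1 stood at 18.6, 13 and 17.5 CPM with siNegative and at 15.1, 14.6 and 16.1 CPM with siHNRNPH1, with 93.5% left and overlapping groups (edgeR adjusted p = 0.673). In HEK-293T it stood at 22.3, 22.8 and 22.6 CPM and at 1.48, 16.2 and 17.2 CPM, with replicate 1 again far below (edgeR adjusted p = 0.637). Without that library 74.0% was left and the transcript was called lower (edgeR adjusted p = 0.00619). ENST00000520415.1 left 74.5% in HT-1080 and 67.4% in HEK-293T, or 92.5% in HEK-293T without replicate 1 (edgeR adjusted p = 0.0593, 0.714 and 0.504). In HT-1080 its siHNRNPH1 libraries all lay below its siNegative libraries, and it was called lower by DESeq2 (adjusted p = 0.0163) and by edgeR without siNegative replicate 2 (0.0306).

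ENST00000524179.1 differed from these in HEK-293T. It stood at 4.77, 5.18 and 6.10 CPM with siNegative and at 10.1, 9.53 and 7.45 CPM with siHNRNPH1, so that all siHNRNPH1 libraries were above all siNegative libraries. The log2 fold change was 0.78 (SE 0.25, edgeR adjusted p = 0.244), and 0.62 without replicate 1 (adjusted p = 0.0666). In HT-1080 it stood at 6.05, 7.28 and 2.54 CPM and at 2.30, 3.59 and 3.21 CPM, with overlapping groups (edgeR adjusted p = 0.270). The highest log2 fold changes of HEK-293T after it were those of ENST00000521790.5 at 0.65 and ENST00000521720.5 at 0.04, and the highest of HT-1080 were those of ENST00000515446.1 at 0.22 and ENST00000513230.1 at 0.21 (edgeR adjusted p = 0.657, 0.967, 0.762 and 0.658). ENST00000513230.1 was called lower in HEK-293T without siHNRNPH1 replicate 1, with 65.1% left (edgeR adjusted p = 0.0208). ENST00000519943.1, at -0.12, was the next in HT-1080.

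The other transcripts with at least 1% of the gene lay between these extremes. ENST00000515481.5, next in siNegative HEK-293T cells, had levels that went from 187, 172 and 184 CPM to 24.7, 73.1 and 78.0 CPM there (32.4% left) and left 41.7% in HT-1080, close to the whole gene in either line. ENST00000502904.5 left 50% in HEK-293T and 48.3% in HT-1080. ENST00000504549.5 left 36.8% and 48.0%, and ENST00000513972.5 left 18% and 50.2%. Of these, all 4 were called lower in HT-1080 (edgeR adjusted p = 0.000829, 0.000538, 0.00133 and 0.0324), and 0 were called in HEK-293T with all libraries. All 4 were called lower in that line without siHNRNPH1 replicate 1, with 41.8%, 55.4%, 45.7% and 26.6% left (edgeR adjusted p = 0.000585, 0.00182, 0.000533 and 0.00224). The HT-1080 call of ENST00000513972.5 was lost without any HT-1080 library but siNegative replicate 2 (0.0852 to 0.113).

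ENST00000329433.11 and ENST00000510411.5 were larger in HEK-293T than in HT-1080. ENST00000329433.11 went from 106, 101 and 100 CPM to 34.6, 39.8 and 46.1 CPM in HEK-293T, and in HT-1080 from 27.7, 32.5 and 39.2 CPM to 12.8, 5.97 and 5.53 CPM (edgeR adjusted p = 0.0455 and 0.0152). The HT-1080 call was lost without siNegative replicate 3 (0.0554) and without siHNRNPH1 replicate 2 or 3 (0.0613 and 0.0528). ENST00000510411.5 went from 95.5, 97.5 and 95.4 CPM to 26.0, 22.5 and 31.0 CPM in HEK-293T (edgeR adjusted p = 0.0416). Its HT-1080 libraries stood at 12.4, 23.8 and 16.1 CPM and at 7.27, 0 and 0 CPM (edgeR adjusted p = 0.334), so 1 library carried all of its siHNRNPH1 signal. Without that library it was called lower (edgeR adjusted p = 0.00851). ENST00000521173.5, ENST00000356731.9, ENST00000523449.5 and ENST00000521720.5 left between 42.4% and 66.8% in HT-1080, and the first 2 of them were called lower there (edgeR adjusted p = 0.0357 and 0.0445). The call of ENST00000356731.9 was lost without any 1 of the HT-1080 libraries (adjusted p = 0.0672 to 0.126), and that of ENST00000521173.5 without any but siHNRNPH1 replicate 2 (0.0797 to 0.120). In HEK-293T 0 of the 4 were called, with 32.3% left of ENST00000521173.5, 69.6% of ENST00000523449.5 and log2 fold changes of 0.011 and 0.043 for ENST00000356731.9 and ENST00000521720.5. With replicate 1 of siHNRNPH1 left out there, the 4 left 43.5%, 142%, 32.0% and 123% in the order first given, and ENST00000521173.5 and ENST00000523449.5 were called lower (edgeR adjusted p = 0.0273 and 0.00955).

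The make-up of the gene changed with its level. The test of transcript usage, limma diffSplice, compares the log2 fold change of a transcript with that of the other transcripts of its gene. HNRNPH1 passed it in both lines (adjusted p = 1.79e-05 in HEK-293T, where 8.56% of genes passed, and 1.19e-09 in HT-1080, where 19.6% passed). At the level of single transcripts, 2 shares fell and 2 rose in HEK-293T, where 2.44% of all transcripts were called. In HT-1080, 6 fell and 4 rose, where 6.6% of all transcripts were called. Without HEK-293T siHNRNPH1 replicate 1, 11 fell and 9 rose in HEK-293T, and 14.7% of all transcripts were called. Leaving out any other HEK-293T library gave 1 share that rose, and leaving out a siNegative library gave 1 that fell. In each of these fits at least 1 of the HEK-293T calls named below was lost. Which of them were kept is not given here. Without HT-1080 siHNRNPH1 replicate 2, 2 shares rose there. A comparison of 3 libraries with 3 by exact permutation cannot give a two-sided p under 0.1, so no such test is reported for the shares.

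ENST00000514332.5 was the transcript whose share was called higher in both lines with all libraries. In HEK-293T its share was 5.57% ± 0.15 of the gene in siNegative libraries and 14.3% ± 5.8 in siHNRNPH1 libraries (SD, n = 3, limma diffSplice adjusted p = 0.0305), or 17.7% without replicate 1. In HT-1080 it was 10.9% ± 1.9 and 22.3% ± 1.7 (adjusted p = 2.77e-10), which made it the largest transcript under siHNRNPH1 there. The shares that also rose in HT-1080 were those of ENST00000519943.1, from 2.64% ± 0.43 to 6.64% ± 0.38, of ENST00000520415.1, from 2.52% ± 0.31 to 5.05% ± 0.27, and of ENST00000513230.1, from 0.386% ± 0.074 to 1.22% ± 0.22 (limma diffSplice adjusted p = 3.25e-06, 0.00319 and 0.00737). In HEK-293T the other share that rose was that of ENST00000524179.1, from 0.481% ± 0.058 to 2.91% ± 1.26 (adjusted p = 0.000565).

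The shares of ENST00000393432.9 and ENST00000510678.5 were called lower in both lines with all libraries. The former fell from 18% ± 1.6 to 5.89% ± 7.18 of the gene in HEK-293T (SD, n = 3), where siHNRNPH1 replicate 1 held 14.2% and the mean without it was 1.76%. Its share in HT-1080 fell from 14.2% ± 2.1 to 6.61% ± 3.05 (limma diffSplice adjusted p = 3.25e-06 and 3.64e-10). The latter fell from 2.71% ± 0.26 to 0.621% ± 0.314 and from 4.10% ± 0.49 to 1.65% ± 0.15 (adjusted p = 0.00436 and 0.000107). In HT-1080 the shares of ENST00000442819.6, ENST00000519033.5, ENST00000522958.5 and ENST00000329433.11 also fell, the first from 18.7% ± 2.0 to 11.1% ± 1.9 (limma diffSplice adjusted p = 1.11e-07, 1.77e-05, 0.000148 and 0.00769). That of ENST00000329433.11 went from 5.36% ± 1.00 to 3.51% ± 1.74 with overlapping groups, and in HEK-293T from 9.22% ± 0.35 to 12.4% ± 2.2, where all siHNRNPH1 libraries were higher (adjusted p = 0.749). ENST00000442819.6 went from 18.7% ± 0.9 to 12.9% ± 2.7 in HEK-293T, where its call depended on replicate 1 (adjusted p = 0.508 with it and 2.40e-23 without it).

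**Figure D2:**
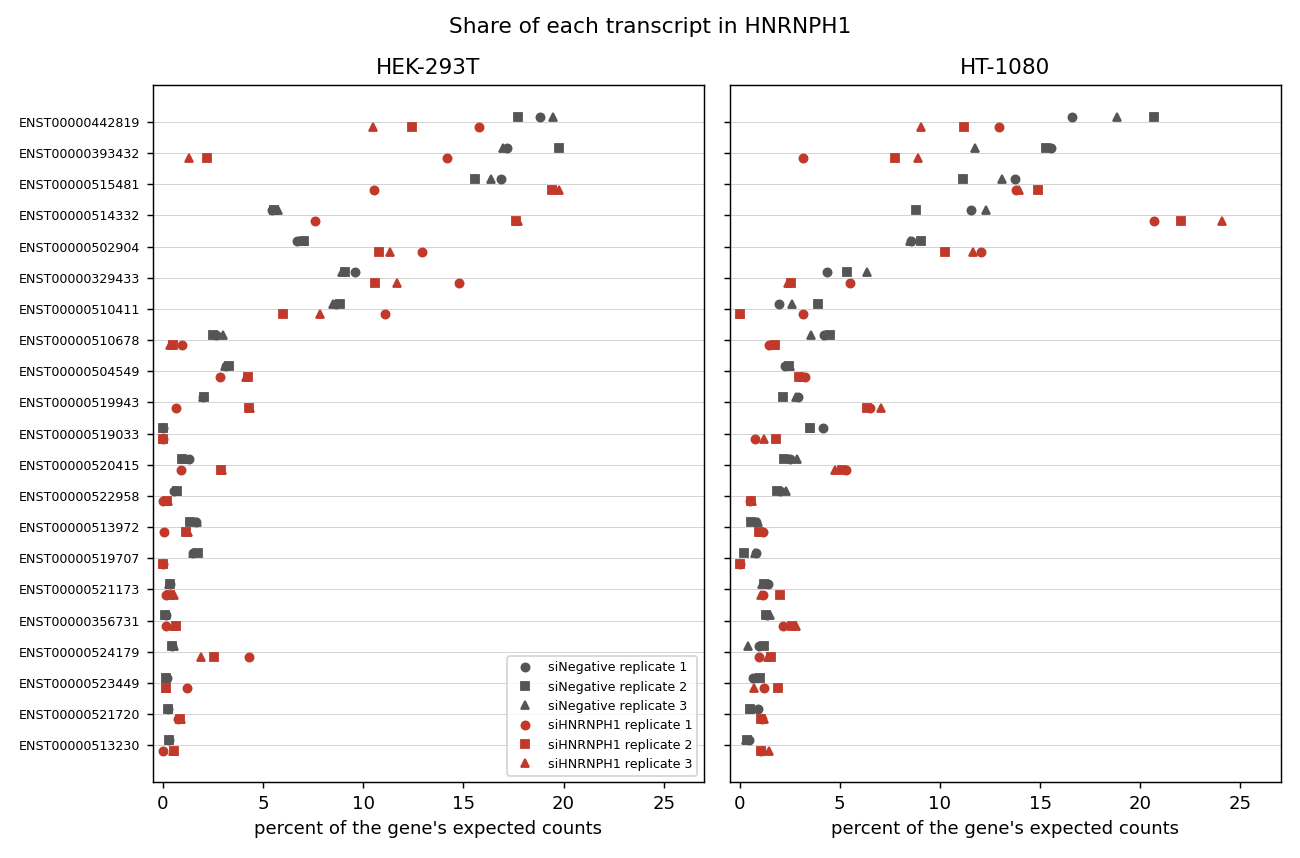
Percent of the gene's expected counts held by each of the 21 larger HNRNPH1 transcripts in every library, with siNegative in grey and siHNRNPH1 in red and a symbol for each replicate. The shares of ENST00000514332 in HT-1080 are 10.9% on average with siNegative and 22.3% with siHNRNPH1, and the siHNRNPH1 replicate 1 of HEK-293T (red circles) lies apart from the other siHNRNPH1 libraries in several transcripts.

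The calls of share were also compared between the lines without replicate 1 of HEK-293T. Of the 4 transcripts whose share rose in HT-1080, 3 were then also called in HEK-293T (ENST00000514332.5, ENST00000519943.1 and ENST00000520415.1). Of the 6 whose share fell, 4 were (ENST00000393432.9, ENST00000442819.6, ENST00000510678.5 and ENST00000522958.5). The HEK-293T calls without replicate 1 that rose numbered 9 and those that fell 11, so these are 3 of 9 and 4 of 11 of the HEK-293T lists.

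The change of single transcripts was also compared between the lines in 1 fit over all 12 libraries. With edgeR's interaction term, 0 of 40 tested HNRNPH1 transcripts were called, where 1.66% of all transcripts were, and 4 had an unadjusted p under 0.05. No other tool was run on this comparison. Without HEK-293T siHNRNPH1 replicate 2 or HT-1080 siNegative replicate 3, 1 was called, and without HT-1080 siHNRNPH1 replicate 1, 2 were. The share of all transcripts called in those fits is not given here. Without HEK-293T siHNRNPH1 replicate 1, 4 were called, where 8.53% of all were. Set against the 40 tested in the main fit, these 4 are near the share of all transcripts. The log2 fold change of ENST00000393432.9 was then less negative in HT-1080 by 2.35 and that of ENST00000510678.5 by 1.38, and that of ENST00000356731.9 was lower in HT-1080 by 1.09 (value -1.09, edgeR adjusted p = 0.0236, 0.00486 and 0.0156). The remaining call, ENST00000523921.1, was named after its values were seen, and stood at 0 in all HT-1080 siHNRNPH1 libraries (edgeR adjusted p = 0.0236).

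Long-read models showed which exons the transcripts contain. Read counts are not part of these files: a model stands for 1 structure however often it was read. With 1 pool per group no test between conditions is possible. The pools are labelled as pooled replicates, so the HEK-293T siHNRNPH1 pool may hold RNA of replicate 1. Its part in that pool's models cannot be told apart. Intervals are exact 95% Clopper-Pearson intervals that cover counting error only. They take each model as an independent draw, although models are distinct structures that can share a splicing form. The intervals are therefore a rough guide and say nothing of shares of molecules. HNRNPH1 models made up 5.56 (3.90 to 7.70) of every 10000 models in HEK-293T siNegative and 1.48 (0.807 to 2.48) in HEK-293T siHNRNPH1. In HT-1080 they made up 2.08 (1.16 to 3.43) and 0.294 (0.0356 to 1.06). In both lines fewer models were listed with siHNRNPH1 than with siNegative.

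The 67 models held 52 distinct chains of introns, and 1 chain, of 14 exons, was listed in all 4 pools. It runs over chr5:179614180-179623674 (GRCh38.p13) and serves here to number the exons from the 5′ end. Exon 1 of this chain has 39 bases and the short donor, exon 5 has 139 bases (chr5:179619269-179619407), exon 13 has 50 bases (chr5:179615546-179615595) and exon 14, the last, has 780 bases. Neither exon 5 nor exon 13 has a length divisible by 3. In 6, 2, 1 and 0 models of the pools the start lay inside the gene, so exons upstream of it were not seen. The chain was listed for 2 of 36, 1 of 14, 2 of 15 and 1 of 2 models in the pools in the order given above. The deposited tables name transcripts without their exons, so models and Ensembl transcripts were not paired here.

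**Figure D3:**
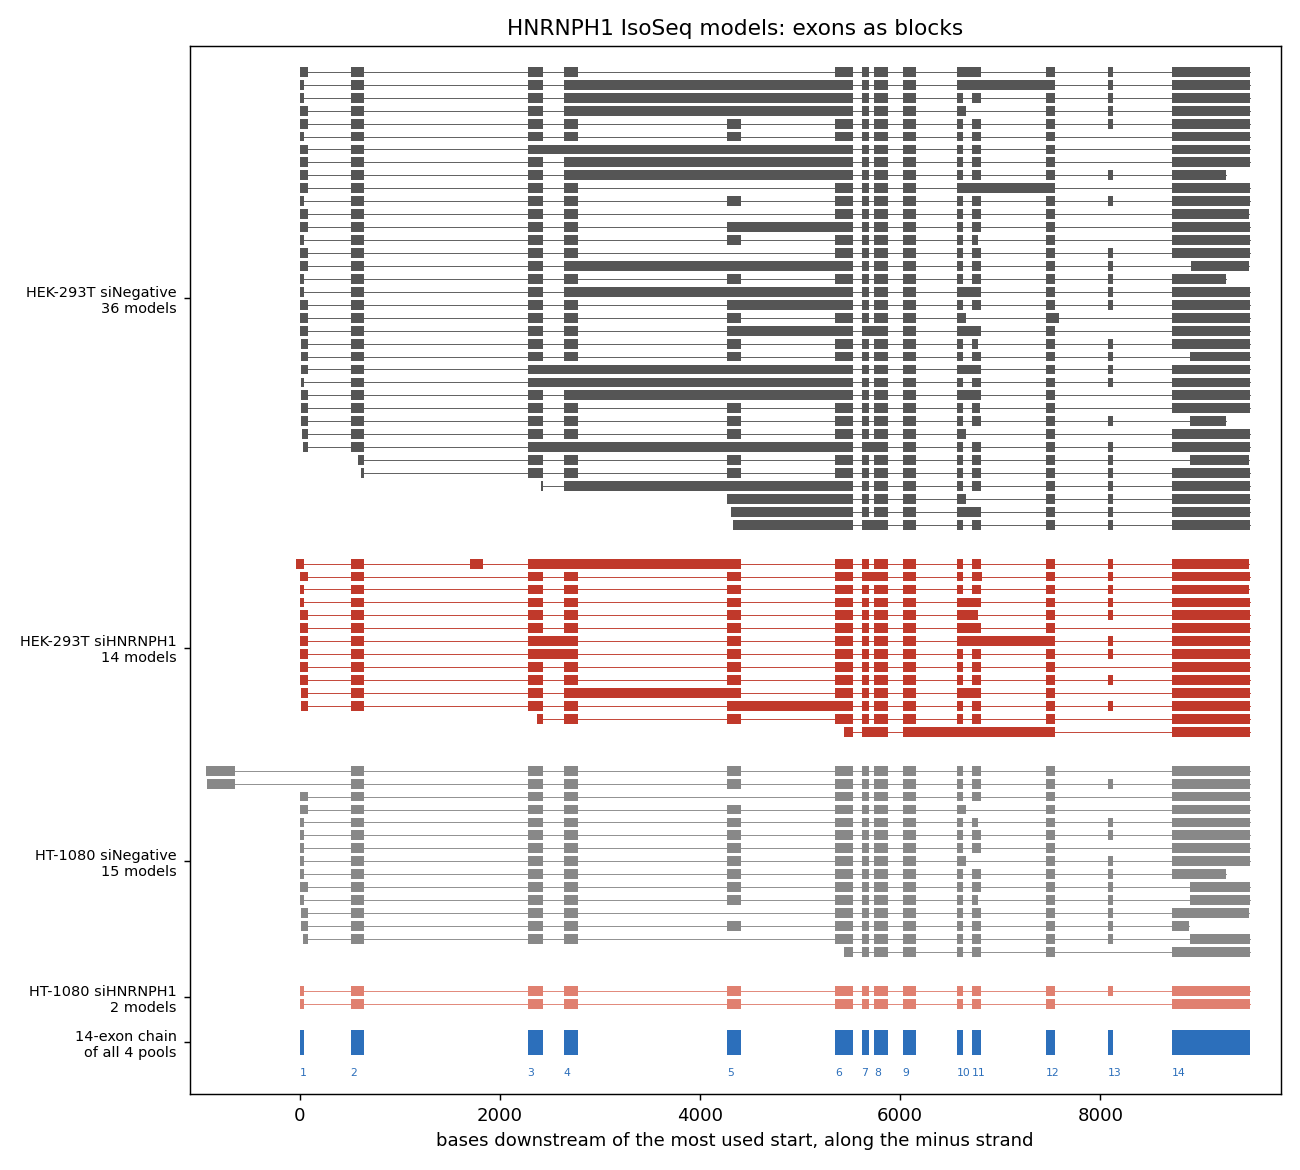
Each row is 1 HNRNPH1 model, with exons as blocks and introns as lines, drawn to scale in bases downstream of the most used start. Models are grouped by pool (36, 14, 15 and 2 models), and the numbered row at the bottom is the 14-exon chain listed in all 4 pools. Long blocks across exons 3 to 6 are retained introns, which are listed in the HEK-293T pools and in 0 of the 15 and 2 HT-1080 models.

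Retained introns were listed in the HEK-293T pools. At least 1 intron was retained in 21 of 36 HEK-293T siNegative models (58.3%, 40.8% to 74.5%) and 10 of 14 HEK-293T siHNRNPH1 models (71.4%, 41.9% to 91.6%). In HT-1080 an intron was retained in 0 of 15 siNegative models, which allows up to 21.8%, and in 0 of 2 siHNRNPH1 models. The share of models with a retained intron over each whole pool is not given here. A difference between whole pools can therefore not be told apart from a difference at HNRNPH1. Introns 3 to 5 lie in the middle of the gene, and any of them was retained in 19 of 36 HEK-293T siNegative models and 5 of 14 siHNRNPH1 models (35.7%, 12.8% to 64.9%). Intron 5, of 945 bases (chr5:179618324-179619268), was retained in 19 of 36 siNegative models (52.8%, 35.5% to 69.6%) and in 1 of 14 siHNRNPH1 models (7.14%, 0.181% to 33.9%). It is the intron with the largest gap among those listed, picked after the values were seen, and is a description of these pools. Intron 4 was retained in 13 of 36 and 2 of 14. Introns 4 and 5 were retained together, with exon 5 enclosed, in 13 of 36 and 0 of 14 models. Of those 13 models, 4 also kept intron 3.

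Other introns were kept in both HEK-293T pools. Intron 10, of 92 bases (chr5:179616959-179617050), was retained in 8 of 36 siNegative models (22.2%, 10.1% to 39.2%) and 6 of 14 siHNRNPH1 models (42.9%, 17.7% to 71.1%). Intron 3, of 206 bases, was retained in 4 of 36 and 3 of 14, intron 7 in 3 of 36 and 2 of 14, and intron 11 in 2 of 36 and 2 of 14. Intron 9 was retained in 0 of 36 and 1 of 14. An extra exon of 134 bases between exons 2 and 3 was listed in 1 HEK-293T siHNRNPH1 model alone.

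Exon 5 was spliced in on both sides in 13 of 36 HEK-293T siNegative models (36.1%), 10 of 14 HEK-293T siHNRNPH1 models (71.4%) and 11 of 15 HT-1080 siNegative models (73.3%). In the 2 HT-1080 siHNRNPH1 models it was spliced in. It was skipped in 4 of 36 (11.1%, 3.11% to 26.1%), 0 of 14 (up to 23.2%), 3 of 15 (20.0%, 4.33% to 48.1%) and 0 of 2 models. Exon 13 was skipped in every pool, in 11 of 36 (30.6%), 5 of 14 (35.7%), 5 of 15 (33.3%) and 1 of 2 models.

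**Figure D4:**
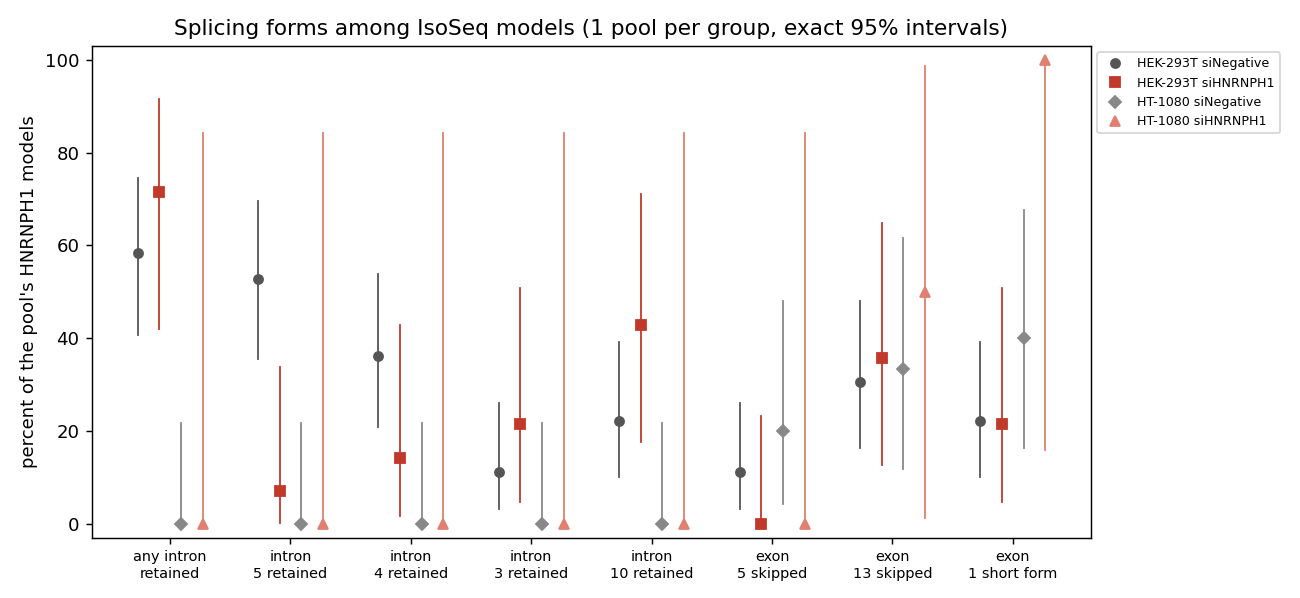
Percent of the HNRNPH1 models of each IsoSeq pool with a given splicing form, with exact 95% intervals that cover counting error only. Intron 5 is retained in 52.8% of HEK-293T siNegative and 7.14% of HEK-293T siHNRNPH1 models, exon 13 is skipped in 30.6% to 35.7% of models in the 3 larger pools, and the intervals of HT-1080 siHNRNPH1 rest on 2 models.

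Exon 1 also varied. The short donor of exon 1 was used by 8 and the long donor by 22 HEK-293T siNegative models, and by 3 and 9 HEK-293T siHNRNPH1 models. In HT-1080 each was used by 6 siNegative models, and both siHNRNPH1 models had the short form. A first exon that starts 923 to 940 bases upstream of the main start was listed in 2 HT-1080 siNegative models and in no other pool, which allows up to 9.74% in HEK-293T siNegative and 23.2% in HEK-293T siHNRNPH1. No test was made of these differences.

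Some smaller changes were listed in siNegative pools of both lines and in no siHNRNPH1 model, and are grouped here by that absence. The last exon began later, at 1 of 2 acceptors, the commoner 182 bases into exon 14, in 4 of 36 and 3 of 15 siNegative models. Exon 10 extended to 90 bases with exon 11 left out was listed in 4 of 36 and 2 of 15. The exact intervals for 0 of 14 and 0 of 2 siHNRNPH1 models reach up to 23.2% and 84.2%, so lower shares were not excluded. These intervals cover counting error only. Other small changes were listed under siHNRNPH1. Exon 11 was shortened in 3 of 36 and 2 of 15 siNegative models and in 1 of 14 HEK-293T siHNRNPH1 models. It was extended in 1 of 14 HEK-293T siHNRNPH1 models and in 0 of 36 and 0 of 15 siNegative models.

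The related genes divided by direction. HNRNPH2, the nearest relative, fell in both lines and HNRNPH3 rose in both, where 4.88% of genes were called lower and 5.12% higher in HEK-293T and 32.6% and 32.7% in HT-1080. In HEK-293T, HNRNPH2 stood at 203, 208 and 203 CPM with siNegative and at 39.5, 65.5 and 65.4 CPM with siHNRNPH1 (27.7% left, log2 fold change -1.88, SE 0.20, edgeR adjusted p = 0.00875). In HT-1080 it stood at 112, 112 and 113 CPM and at 65.5, 65.1 and 58.9 CPM (56.1% left, log2 fold change -0.90, SE 0.05, edgeR adjusted p = 3.57e-07). HNRNPH1 and HNRNPH2 are similar in sequence, so part of their reads could be divided between them by estimate. The part of this in either value was not tested.

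HNRNPH3 stood at 306, 318 and 307 CPM with siNegative and at 536, 741 and 771 CPM with siHNRNPH1 in HEK-293T (log2 fold change 1.11, SE 0.15, edgeR adjusted p = 0.0138). Its HT-1080 libraries stood at 210, 204 and 206 CPM and at 408, 401 and 399 CPM (log2 fold change 0.90, SE 0.04, edgeR adjusted p = 7.46e-08). The siHNRNPH1 libraries were above all siNegative libraries in both lines. HNRNPF fell from a mean of 291 to 171 CPM in HT-1080 (log2 fold change -0.83, edgeR adjusted p = 1.76e-07) and had a log2 fold change of -0.15 in HEK-293T (adjusted p = 0.468). GRSF1 had log2 fold changes of 0.28 in HEK-293T (adjusted p = 0.181) and -0.20 in HT-1080 (adjusted p = 0.00278). All 4 relatives were called in HEK-293T without siHNRNPH1 replicate 1, HNRNPH2 at -1.70, HNRNPH3 at 1.23, HNRNPF at -0.091 and GRSF1 at 0.33 (edgeR adjusted p = 5.27e-21, 1.91e-19, 0.00565 and 4.16e-09). In that fit 31.3% of all genes were called lower and 30.5% higher. In HEK-293T the calls of HNRNPH2 and HNRNPH3 were lost when any siNegative library was left out, with adjusted p up to 0.0701 and 0.107, and without siHNRNPH1 replicate 2 HNRNPH3 had an adjusted p of 0.0658.

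**Figure D5:**
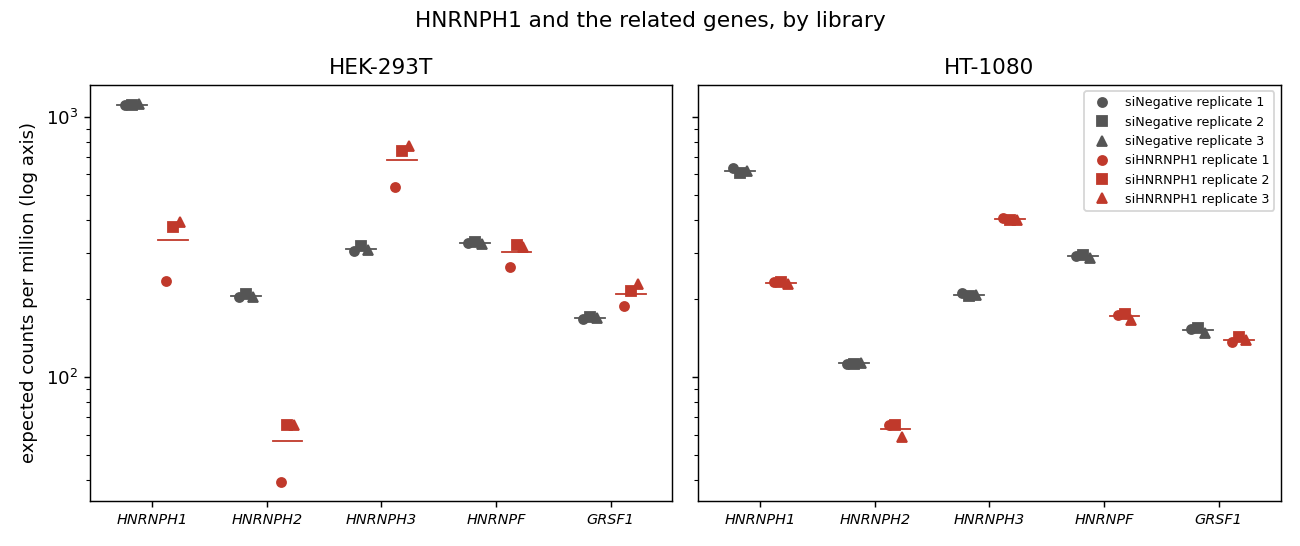
CPM of HNRNPH1 and its 4 relatives in every library (log axis), with siNegative in grey, siHNRNPH1 in red, a symbol for each replicate and a line at each group mean. HNRNPH1 and HNRNPH2 are lower and HNRNPH3 is higher in all siHNRNPH1 libraries of both lines, and HNRNPF lies between 165 and 175 CPM in the HT-1080 siHNRNPH1 libraries.

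The change differed between the lines for 3 of these 4 relatives, where 19% of all genes were called different. HNRNPH2 fell less in HT-1080 (0.92, SE 0.19, HT-1080 minus HEK-293T, edgeR interaction adjusted p = 0.00742), HNRNPF was lower there (-0.76, adjusted p = 0.000721), and so was GRSF1 (-0.55, adjusted p = 0.00458). HNRNPH3 had a difference of -0.28 (edgeR interaction adjusted p = 0.200). With HEK-293T siHNRNPH1 replicate 1 left out, all 4 relatives differed between the lines, HNRNPH3 by -0.38 (SE 0.06, edgeR interaction adjusted p = 2.15e-05), where 49% of all genes did. Among 20 other hnRNP genes, 0 were called in either direction in HEK-293T with edgeR (4.88% of all genes lower, 5.12% higher). Of the 20, 2 had an unadjusted p under 0.05 there with edgeR. DESeq2 called 1 lower in that line, where it called 19.9% of all genes in either direction. Without HEK-293T siHNRNPH1 replicate 1, 17 were called lower and 1 higher, where 31.3% of all genes were lower and 30.5% higher. In HT-1080, 18 were called lower and 1 higher, where 32.6% of all genes were lower and 32.7% higher, and the higher call, PCBP2, was lost (0 higher) when any HT-1080 library other than siNegative replicate 2 was left out. HNRNPA0 was lowest there (log2 fold change -0.88) and PCBP2 highest (0.11), and in HEK-293T the ends of the list were HNRNPUL2 (-0.52) and HNRNPD (0.04). The list's medians were -0.22 and -0.53, beside 0.02 for all genes tested in HEK-293T and 0.01 for those in HT-1080.

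Genes next to HNRNPH1 on chromosome 5 were left at higher levels. RUFY1, an endosomal protein gene, left 73.8% in HEK-293T and 98.7% in HT-1080 (edgeR adjusted p = 0.169 and 0.168). CANX, which encodes the chaperone calnexin, left 64.7% and 85.9%, and MAML1, a Notch coactivator gene, left 92.0% and 89.4%. Both were called lower in HT-1080 (edgeR adjusted p = 0.00116 and 0.0135) and neither in HEK-293T (0.182 and 0.713). Of all genes, 32.6% were called lower in HT-1080 and 4.88% in HEK-293T. RUFY1 and CANX were called lower in HEK-293T without siHNRNPH1 replicate 1 (log2 fold changes -0.65 and -0.42, edgeR adjusted p = 3.39e-12 and 2.82e-11) and MAML1 was not (0.064, adjusted p = 0.0698). In that fit 31.3% of all genes were called lower. CBY3 was at 0 in all libraries and C5orf60 at most 0.213 CPM.

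The genes whose level followed that of HNRNPH1 most closely were TMEM123, ARMT1, NUP43, FYTTD1 and NFATC2IP. Pearson's r of log2(CPM + 1), centred within each line, was 0.998 to 0.999 over the 12 libraries, among 12172 genes compared. The libraries share the siRNA contrast and, in HEK-293T, the library that stood apart, so these values are a description. The log2 fold changes were -1.83 and -1.60 for TMEM123, which encodes a membrane protein, and -1.17 and -1.06 for NUP43, a part of the nuclear pore, in HEK-293T and HT-1080 (edgeR adjusted p = 0.0110, 1.06e-08, 0.00978 and 1.32e-07). FYTTD1, an mRNA export adaptor gene, changed by -1.37 and -1.23 (edgeR adjusted p = 0.0167 and 1.70e-08).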

How the data were processed

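Short-read RNA-seq of 12 libraries gave expected counts per transcript, which the authors deposited after estimation with RSEM on GRCh38.p13, per the submitters' processing notes. Long-read IsoSeq of 4 pools gave transcript models, which hold no read counts. Expected counts were rounded to whole numbers, and gene counts are sums of transcripts. Libraries held 27.3 M to 121 M expected counts. edgeR 4.0.16 (TMM scaling, filterByExpr, robust quasi-likelihood test) compared siHNRNPH1 with siNegative within each line over all genes and all transcripts, and limma 3.58.1 diffSplice tested transcript usage. Adjusted p is Benjamini-Hochberg, threshold 0.05, in R 4.3.3. The edgeR fits within a line and limma diffSplice were run on simulated data. The fit over both lines, DESeq2 and diffSpliceDGE were not. Transcripts were named if they held at least 1% of the gene in any group or were among the 3 highest or 3 lowest log2 fold changes of a line. Alternatives were other scalings, no filter, DESeq2 1.42.0, diffSpliceDGE, a replicate block and each library left out. Reads shared by transcripts, or with HNRNPH2, are divided by estimate, so levels of similar transcripts are uncertain. The members and gene lists were chosen with earlier results of these data known.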

Additional observations from a re-analysis of the deposited data

Results flagged for a closer look

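Of the 4 relatives and 20 other hnRNP genes, 10 had a log2 fold change that differed between the lines by edgeR's interaction test over the 12 libraries (HT-1080 minus HEK-293T), where 19% of all genes did. HNRNPH2 was less reduced in HT-1080, by 0.92 (SE 0.19, adjusted p = 0.00742). The other 9 had lower values in HT-1080. By the edgeR interaction test these were HNRNPF at -0.76 (adjusted p = 0.000721), HNRNPA0 at -0.73 (0.000842), HNRNPD at -0.71 (0.00357) and GRSF1 at -0.55 (0.00458). HNRNPA2B1 at -0.48 (0.0432), HNRNPA3 at -0.47 (0.0370), HNRNPLL at -0.39 (0.0420), HNRNPUL1 at -0.37 (0.0424) and PTBP1 at -0.34 (0.0495) were nearer the threshold in the edgeR interaction test. Each of these 5 lost its call with library size alone as the scaling, with the replicate block, and without any single HT-1080 library or HEK-293T siNegative library.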

How the results depend on the processing

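In HEK-293T the log2 fold change of the gene was -1.79 with the replicate block (edgeR adjusted p = 0.0665) and ranged from -1.89 to -1.58 with 1 library left out. With the replicate block, 0 of all genes and 0 of all transcripts were called in HEK-293T. The count of transcripts called lower in HEK-293T was 3 with no filter on low counts, 17 with DESeq2, 0 with the replicate block and 0 to 22 with 1 library left out. Over all transcripts there, 0.0538% were called in either direction with no filter and 7.82% with DESeq2, against 0.248% in the main fit. In HT-1080 the count called lower was 7 with the replicate block and 9 to 13 with 1 library left out. Over all transcripts there, 7.56% and 8.58% to 13.7% were called in either direction in those fits, against 16.1% in the main fit. The count with a higher share in HEK-293T was 1 with edgeR diffSpliceDGE, 1 among transcripts with at least 5% of their gene, 1 with the replicate block and 1 to 9 with 1 library left out. The count with a lower share in HEK-293T was 4, 1 and 1 to 11 with diffSpliceDGE, the 5% minimum and 1 library left out. In HT-1080 the count with a higher share was 1 and 1 with diffSpliceDGE and the 5% minimum and 2 to 4 with 1 library left out, and the count with a lower share was 3 and 2. Transcripts that differed between the lines numbered 1 with library size alone and 0 to 4 with 1 library left out. Directions reversed in HEK-293T for ENST00000356731.9 (-0.0024 with no filter, -0.26 with the replicate block, and -0.076, -0.33 and -0.23 without siNegative replicate 2, siHNRNPH1 replicate 2 and siHNRNPH1 replicate 3, within -0.33 to 0.45 over all libraries left out), for ENST00000521720.5 (-0.0014, -0.029 and -0.12 without the same libraries, within -0.12 to 0.25) and for ENST00000514332.5 (0.089 without siHNRNPH1 replicate 1, within -0.57 to 0.089). The causes were not tested. Same-numbered libraries were not paired: their deviations correlated at 0.023 to 0.098 in HEK-293T and -0.0021 to 0.085 in HT-1080. Levels per transcript length were not run. Of 198 values under alternatives for summary results, 155 kept their direction, call or size. All 360 differences in share of named transcripts moved by less than 1 SD, the larger SD of siNegative and siHNRNPH1. Leaving out 1 of 3 libraries cannot move a group mean by that much, so this is no measure of stability. Of the 360, 10 turned sign, 9 in HEK-293T and 1 in HT-1080. IsoSeq shares rest on 2 to 36 models and have no replicates.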
